A study of Oryza sativa with 9 samples.

Results

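The loci described here carried an appreciable transcript level in chilled wild-type rice seedlings and were almost silent in both mutants of the study. Levels were taken as CPM, the count of a locus divided by the total count of its library and scaled to 1000000 counts. A locus was chosen when its mean over the 3 wild-type (WT) libraries was at least 20 CPM and when the mean of each mutant group was at most 1/16 of that WT mean, which is 6.25%. Of the 55801 loci counted, 7469 had a WT mean of at least 20 CPM, and 43 of these met both limits. The limit was met by 51 loci in the ossro1c libraries and by 112 in the osdreb2b libraries. The loci were selected on these same values, so the comparisons of the 43 loci with WT are given as a description and without a test.

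The libraries were made from shoots of seedlings with 4 leaves after 2 d at 4 °C, in the ZH11 background. The 3 groups were WT, plants labelled as an ossro1c knockout and plants labelled as an osdreb2b knockout, with 3 libraries each. All 9 libraries came from chilled plants, so the values compare genotypes in the cold and do not measure a response to cold. Per the design text, genes lower in both mutants are sought as candidates for control by a complex of OsSRO1c, a protein of the plant SRO family, with OsDREB2B, a DREB-type transcription factor. The labels give neither the kind of mutation nor the number of lines. They also do not say whether replicates are separate plants or pools, so a p-value here reflects the spread between libraries, which may be technical.

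Heat shock proteins are chaperones that bind unfolded proteins. The HSP90 family holds client proteins in a folding-competent state, small heat shock proteins keep unfolding proteins soluble, and HSP100 (CLPB) proteins dissolve aggregates. Their genes are switched on by heat shock factors, and in plants DREB2-type factors also act in this network. Of the 4 loci that could be given a name, 3 belong to these families and the fourth encodes a plant haemoglobin. Names could come only from a list of 89 pairs of locus and name, of which 71 were heat shock and chaperone pairs, so the makeup of the named loci says nothing about that of the 43. The other 39 loci are given by identifier, since they had no name in that list that the reference table could check. Among them, LOC_Os01g62290 and LOC_Os05g38530 are listed as HSP70 genes and LOC_Os06g39240 as MBF1C, a co-activator, all without a check. In the identifiers the digits after Os give the chromosome, and neighbouring numbers lie next to each other.

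Library totals ran from 58398026 to 69336224 counts. The group labels were checked on the genes that the mutants are named for. OsSRO1c (LOC_Os03g12820, a pairing of name and locus that the reference table could not check) had 1857, 1827 and 1839 CPM in WT, 431, 471 and 494 CPM in the libraries labelled ossro1c, and 128, 134 and 136 CPM in those labelled osdreb2b. OsDREB2B (LOC_Os05g27930) had 150, 150 and 156 CPM in WT, 75.0, 68.7 and 87.4 CPM in the libraries labelled ossro1c, and 316, 298 and 309 CPM in those labelled osdreb2b. The OsSRO1c transcript was thus lowest in the libraries labelled osdreb2b, and the OsDREB2B transcript was highest there. Transcript counts do not show whether a working protein was made, and directions between the mutant groups below rest on the labels as given. One ossro1c library, replicate 3, differed from its group: a chi-square of the counts, divided by the number of genes, was 82.8 and 83.1 against replicates 2 and 1, and 8.54 to 14.4 for the other pairs of replicates. Without it, 42 loci met the rule. LOC_Os01g39136 and LOC_Os01g64130 dropped out and LOC_Os01g42860 came in.

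Together the 43 loci took up 0.832%, 0.836% and 0.825% of all counts in the WT libraries. They took up 0.0256%, 0.0268% and 0.0293% in the ossro1c libraries and 0.01199%, 0.0129% and 0.0122% in the osdreb2b libraries. That WT lay far above both mutants follows from the rule. The mutant groups did not overlap each other. In WT, 34.2% of the counts of the 43 loci came from the 2 with the highest level. In bulk shoots, fewer cells of a type and less RNA per cell cannot be told apart.

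The summed level of 6 leaf markers, of whose names 1 could be checked, also differed between the groups. It ran from 10867 to 11648 CPM in WT, from 14753 to 18846 CPM in ossro1c and from 30296 to 32159 CPM in osdreb2b. Of 3 root markers, LSI2, which encodes a silicon efflux transporter, was at 0 in all libraries. The summed root level ran from 2.04 to 2.52 CPM in WT, from 17.997 to 21.8 CPM in ossro1c and from 8.65 to 11.8 CPM in osdreb2b. Almost all of this sum was 1 gene, LSI1, with means of 2.18, 19.6 and 10.1 CPM in the same order. Of 3 markers of meristems and dividing cells, OSH1, a homeobox gene of the shoot meristem, was at 0 in all libraries. The summed meristem level ran from 7.67 to 8.66 CPM in WT, from 11.1 to 14.2 CPM in ossro1c and from 27.0 to 32.3 CPM in osdreb2b. Most of this sum was CDKB2-1, with means of 6.74, 8.66 and 27.0 CPM. Its change from WT in ossro1c did not pass (log2 0.05, adjusted p = 0.79, edgeR). None of the 3 sums was lower in a mutant group than in WT, but the leaf markers did not move as one. In ossro1c LOC_Os09g17740 fell from 294 to 66.0 CPM (log2 -2.47, adjusted p = 2.5e-09, edgeR) and LOC_Os03g39610 from 518 to 251 CPM (log2 -1.36, adjusted p = 3.9e-07, edgeR). The part of tissue makeup in the levels of the 43 loci was not tested.

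The WT means of the 43 loci ran from 20.8 to 1596 CPM with a median of 79.9 CPM, beside a median of 56.7 CPM for the 7469 loci over the minimum. There were 17 between 20 and 50 CPM, 7 between 50 and 100 CPM, 14 between 100 and 500 CPM and 5 above 500 CPM. The WT replicates lay close together, with a median coefficient of variation of 2.85% (range 0.352% to 12.9%), beside 3.53% over the 7469 loci. As a percentage of the WT mean, the ossro1c means had a median of 2.49% and the osdreb2b means a median of 0.757%. In ossro1c, 4 loci were under 1% of WT and 13 were under 1 CPM. In osdreb2b, 26 loci were under 1% of WT and 22 were under 1 CPM. A wide gap between WT and mutant libraries is nearly fixed by the rule. The smallest ratio of the lowest WT library to the highest mutant library was 11.3, at LOC_Os01g64130.

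**Figure D1:**
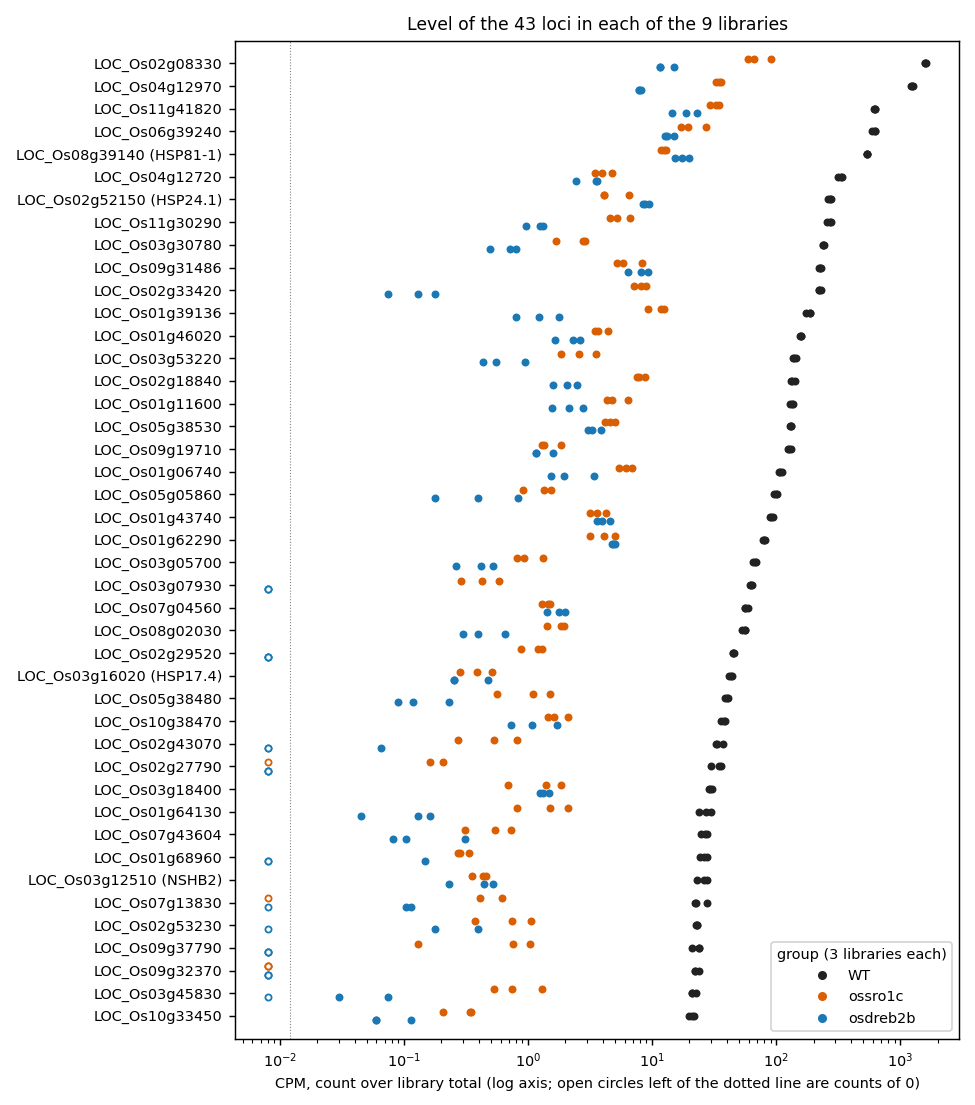
Level of each of the 43 loci in the 9 libraries, in CPM on a log axis, with 1 point per library (black WT, orange ossro1c, blue osdreb2b) and open circles for counts of 0. The WT points lie together on the right, and for most loci the blue points lie left of the orange ones, with HSP81-1 and HSP24.1 the other way round.

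HSP81-1 (LOC_Os08g39140), which encodes a cytosolic HSP90 chaperone, was the fifth highest of the 43 in WT. Its level was 537, 539 and 540 CPM in WT, 11.8, 12.6 and 12.98 CPM in ossro1c, and 19.9, 17.398 and 15.2 CPM in osdreb2b. WT was 43.2-fold above the ossro1c mean and 30.8-fold above the osdreb2b mean. All 3 osdreb2b libraries lay above all 3 ossro1c libraries.

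HSP24.1 (LOC_Os02g52150), a small heat shock protein gene, had 263, 272 and 277 CPM in WT. It had 4.13, 4.12 and 6.48 CPM in ossro1c and 8.74, 9.40 and 8.42 CPM in osdreb2b, so that the mutant groups again did not overlap and osdreb2b was the higher. WT was 55.2-fold above ossro1c and 30.6-fold above osdreb2b. HSP17.4 (LOC_Os03g16020), another small heat shock protein gene, had 41.8, 44.2 and 43.4 CPM in WT, 0.514, 0.280 and 0.389 CPM in ossro1c, and 0.253, 0.474 and 0.252 CPM in osdreb2b. Here the mutant groups overlapped, and WT was 109-fold above the first and 132-fold above the second. Close copies of small heat shock protein genes can share reads, and how such reads were counted is not given in the sources used here.

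NSHB2 (LOC_Os03g12510) encodes a non-symbiotic haemoglobin, a protein of the kind that binds oxygen and removes nitric oxide in plant cells. It had 27.7, 26.3 and 22.8 CPM in WT, 0.462, 0.354 and 0.433 CPM in ossro1c, and 0.521, 0.229 and 0.445 CPM in osdreb2b. The mutant groups overlapped, and WT was 61.5-fold and 64.3-fold above their means. NSHB1 (LOC_Os03g13140), from the same family, was scarcely expressed in WT (0.848 ± 0.134 CPM, SD, n = 3) and so could not meet the rule.

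Of the unnamed loci, LOC_Os02g08330 was the highest in WT, where it ranked 42 among all loci. It had 1578, 1626 and 1585 CPM in WT, 59.3, 66.1 and 90.0 CPM in ossro1c, and 11.5, 15.0 and 11.6 CPM in osdreb2b. WT was 22.2-fold above the first mutant mean and 126-fold above the second, and the 3 groups did not overlap.

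LOC_Os04g12970 followed with 1256, 1253 and 1231 CPM in WT, 36.0, 32.9 and 34.7 CPM in ossro1c, and 7.83, 8.16 and 7.87 CPM in osdreb2b. LOC_Os11g41820 had 626, 617 and 630 CPM in WT, 32.9, 34.7 and 29.5 CPM in ossro1c, and 14.5, 22.8 and 18.92 CPM in osdreb2b. LOC_Os06g39240 had 627, 625 and 595 CPM in WT, 17.1, 19.6 and 27.4 CPM in ossro1c, and 15.1, 12.6 and 13.3 CPM in osdreb2b. At each of these 3 loci every osdreb2b library was below every ossro1c library.

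LOC_Os04g12720 had similar levels in the mutants, with 334, 337 and 317 CPM in WT, 3.49, 4.76 and 3.95 CPM in ossro1c, and 2.44, 3.61 and 3.50 CPM in osdreb2b. LOC_Os11g30290 had a WT mean of 267 CPM, an ossro1c mean of 5.48 CPM and an osdreb2b mean of 1.17 CPM. LOC_Os03g30780 had a WT mean of 240.2 CPM, an ossro1c mean of 2.44 CPM and an osdreb2b mean of 0.671 CPM. The mutant groups overlapped at the first of these 3 loci and not at the other 2.

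LOC_Os02g33420 showed the widest gap between the mutants among loci detected in both. It had 221, 223 and 229 CPM in WT, 7.09, 8.85 and 8.16 CPM in ossro1c, and 0.0744, 0.131 and 0.178 CPM in osdreb2b. The osdreb2b values stand for 5, 8 and 12 counts, against 414, 600 and 566 counts in ossro1c. WT was 27.9-fold above ossro1c and 1755-fold above osdreb2b.

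Some loci were not detected at all. LOC_Os09g32370 had 1547, 1397 and 1433 counts in WT and 0 counts in all 6 mutant libraries. A count of 0 over 3 libraries allows up to 3 counts, or 0.0153 CPM, so WT was at least 1482-fold higher than ossro1c and at least 1484-fold higher than osdreb2b. These limits cover counting error only. Another 4 loci were at 0 in the 3 osdreb2b libraries and not in ossro1c. Of these, LOC_Os03g07930 had 3976, 3925 and 4155 counts in WT and 34, 29 and 20 counts in ossro1c, which puts WT at least 4088-fold higher than osdreb2b. LOC_Os02g29520 had a WT mean of 45.1 CPM and an ossro1c mean of 1.12 CPM, and WT was at least 2940-fold higher than osdreb2b. For LOC_Os02g27790 and LOC_Os09g37790 WT was at least 2178-fold and at least 1493-fold higher than osdreb2b. The remaining zeros were scattered. LOC_Os07g13830 had 0, 28 and 43 counts in ossro1c, and LOC_Os02g53230 had 0, 24 and 12 counts in osdreb2b, so replicates of 1 group did not always share a 0.

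Loci lay close to the limits of the rule on either side. Just inside the ratio limit, the higher mutant mean was 5.94% of WT at LOC_Os02g18840, 6.11% at LOC_Os01g62290 and 6.13% at LOC_Os01g39136. Just outside it was 6.29% at LOC_Os03g56540, 6.43% at LOC_Os08g03880 and 6.80% at LOC_Os01g53820. Just inside the WT minimum were LOC_Os10g33450 with 20.8 CPM, LOC_Os03g45830 with 21.4 CPM and LOC_Os09g32370 with 22.7 CPM. Just outside it were LOC_Os04g12669 with 18.3 CPM, LOC_Os07g27390 with 18.2 CPM and LOC_Os07g43240 with 18.14 CPM.

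**Figure D2:**
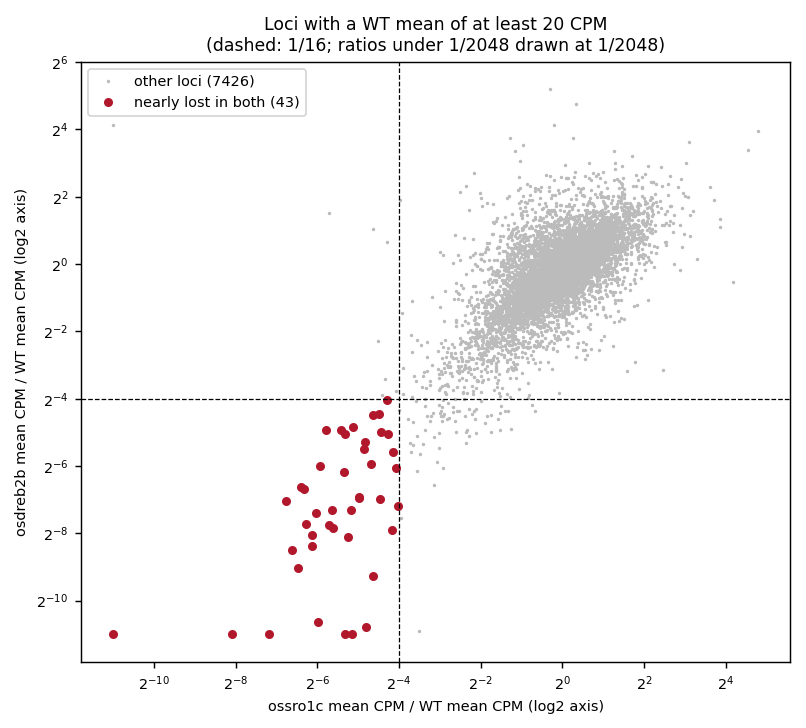
Ratio of the ossro1c mean to the WT mean (x axis) and of the osdreb2b mean to the WT mean (y axis), both on log2 axes, for the 7469 loci with a WT mean of at least 20 CPM. Each point is 1 locus, red for the 43 chosen loci, both axes share the WT libraries, and the dashed lines mark the limit of 1/16 that sets off the lower left corner.

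The rule capped both mutant groups but set no order between them, and the difference between the mutants was tested. This test reuses the mutant means that chose the loci. The limit was met by 51 loci in ossro1c and by 112 in osdreb2b, so a lean of the 43 loci towards osdreb2b may come partly from the choice. The shares over all genes given beside the counts were under no such limit. Transcript that remained was mostly lower in the libraries labelled osdreb2b. By edgeR's quasi-likelihood test over all 9 libraries, with counts scaled by TMM (a scaling that assumes most genes do not differ), 28 of the 43 loci were lower in osdreb2b than in ossro1c at an adjusted p below 0.05. Over all 26112 genes tested, 23.6% were lower in osdreb2b. In the other direction 5 of the 43 were higher, where 22.9% of all genes were, and 10 passed in neither direction. Scaled by raw library totals instead, 29 of the 43 were lower and 2 higher, while the split over all genes moved from 6173 lower and 5974 higher to 8054 lower and 4398 higher. The median log2 change of the 43 loci was -1.49, against -0.02 for all genes. All 43 passed the filter on low counts, which was applied over the 9 libraries and is met by their level in WT. On the 6 mutant libraries alone 39 of them pass it, of which 26 were called lower and 5 higher in the fit of all 9 libraries. Those calls still use the spread of the WT libraries. Fitted on the 6 mutant libraries alone, fewer loci passed, with the counts given below under the processing. LOC_Os10g33450, for example, went from an adjusted p of 0.00087 to 0.099 (edgeR).

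Counted by libraries, 26 of the 43 loci had all osdreb2b values below all ossro1c values, as did 35.1% of all genes tested. HSP81-1 and HSP24.1 were the 2 loci with all osdreb2b values above all ossro1c values, as 20.6% of all genes had. The OsSRO1c transcript was itself lower in osdreb2b than in ossro1c, by a log2 change of -1.63 (SE 0.07, adjusted p = 6.7e-10, edgeR). The OsDREB2B transcript was higher there, by 2.18 (SE 0.10, adjusted p = 5.4e-10, edgeR).

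**Figure D3:**
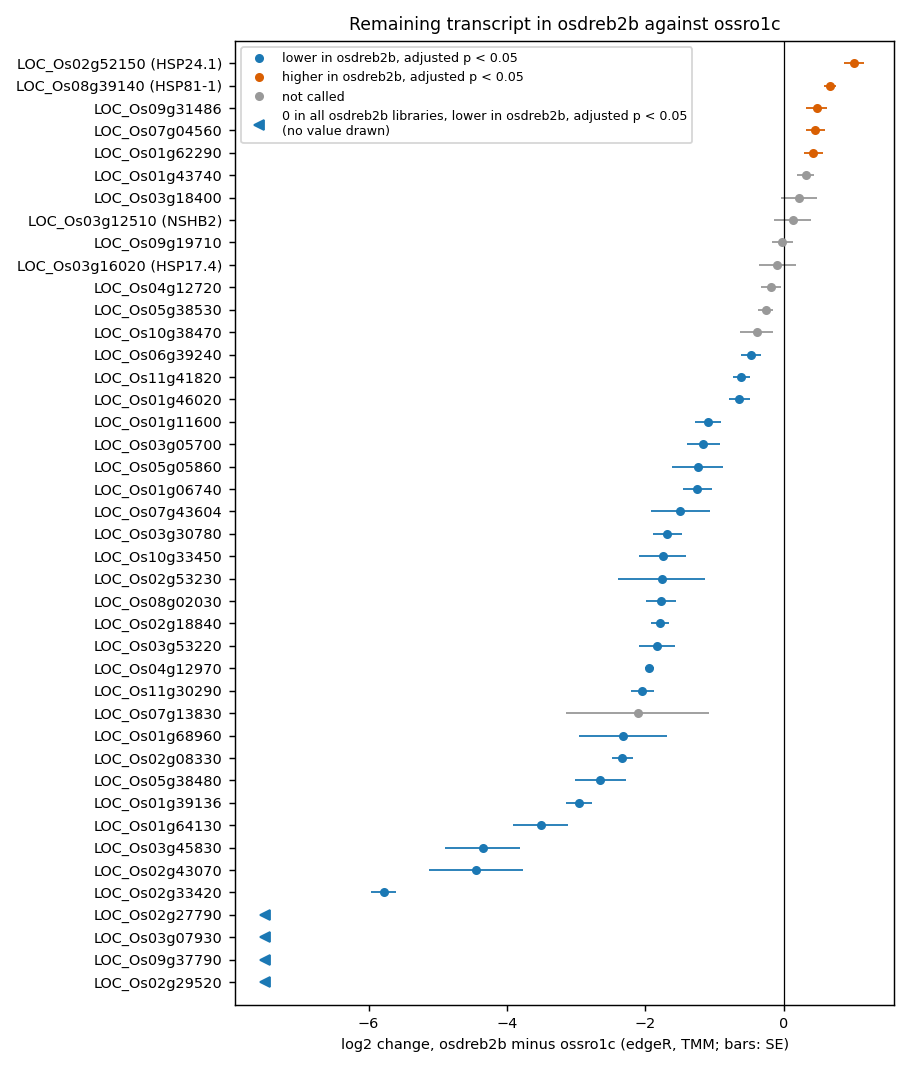
Log2 change from ossro1c to osdreb2b (edgeR, TMM scaling) of 42 of the 43 loci, with bars for the standard error (SE) and arrowheads without a value for 4 loci at 0 in all osdreb2b libraries. Blue loci were lower and orange loci higher in osdreb2b at an adjusted p below 0.05, and LOC_Os09g32370, at 0 in both mutants, is not drawn.

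The widest change among loci with counts in both groups was at LOC_Os02g33420, where log2 fell by 5.78 (SE 0.18, adjusted p = 2.8e-11, edgeR). LOC_Os02g43070 fell by 4.45 (SE 0.68, adjusted p = 0.00012, edgeR), from 0.542 CPM in ossro1c to 0.0218 CPM, the latter from 1 library alone. Of the 4 loci at 0 in osdreb2b only, LOC_Os02g29520 and LOC_Os03g07930 passed with adjusted p of 5.3e-08 and 2.6e-06 (edgeR), and with 0.0001 and 0.0021 when only the 6 mutant libraries were fitted. The other 2 entered the test through WT alone. LOC_Os09g37790 had 61, 51 and 9 counts in ossro1c and LOC_Os02g27790 had 12, 11 and 0 counts, so their calls between the mutants are given no weight here. Among the highest loci, LOC_Os02g08330 fell by 2.33 (SE 0.15, adjusted p = 4.2e-08, edgeR) and LOC_Os04g12970 by 1.94 (SE 0.07, adjusted p = 7.9e-11, edgeR). LOC_Os06g39240 fell by 0.47 (SE 0.15, adjusted p = 0.018, edgeR), and its call was lost without osdreb2b replicate 2 or replicate 3.

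Both chaperone genes with a checked name and separate mutant groups were higher in osdreb2b: HSP24.1 by 1.02 (SE 0.15, adjusted p = 7.7e-05, edgeR) and HSP81-1 by 0.67 (SE 0.09, adjusted p = 4.6e-05, edgeR). The other 3 loci called higher were LOC_Os09g31486 with 0.48 (SE 0.15), LOC_Os07g04560 with 0.46 (SE 0.14) and LOC_Os01g62290 with 0.43 (SE 0.14), at adjusted p of 0.021, 0.013 and 0.027 (edgeR). At these 3 the groups overlapped, and their calls were lost with raw library totals or with only the 6 mutant libraries in the fit. LOC_Os01g62290 is listed as an HSP70 gene without a checked name, as is LOC_Os05g38530. At LOC_Os05g38530 the mutant groups were separate with osdreb2b the lower. Its log2 change of -0.26 (SE 0.11, adjusted p = 0.066, edgeR) did not pass. HSP17.4 had a log2 change of -0.09 (SE 0.27, adjusted p = 0.81, edgeR) and NSHB2 of 0.13 (SE 0.27, adjusted p = 0.73, edgeR). Their mutant libraries held 17 to 30 counts of HSP17.4 and 14 to 35 counts of NSHB2, and a missed threshold does not show equal levels.

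The wider chaperone and heat shock factor families were set beside the chosen loci. From lists of known rice genes with checked names, 48 were tested, among them HSP81-1, HSP24.1 and HSP17.4. Leaving these 3 out, 23 of 45 were lower in ossro1c than in WT (51.1%) and 23 of 45 were lower in osdreb2b than in WT (51.1%). Over all genes tested, 31.4% were lower in ossro1c and 29.6% were lower in osdreb2b. Another 10 were higher in ossro1c, beside 29.4% of all genes, and 9 were higher in osdreb2b, beside 29.9%. Of the 45, 18 were lower in both mutants (40.0%), and of all 48, 3 were higher in both. The share of all genes lower in both is not given here. With raw library totals 22 of all 48 were lower in ossro1c in place of 26, while the split over all genes moved from 8207 lower and 7685 higher to 5971 lower and 10264 higher. Both comparisons use the same WT libraries, and the lists were corrected after the values were seen.

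Without HSP24.1 and HSP17.4, which the rule chose for being low, 8 of 16 small heat shock protein genes were lower than WT in each mutant, beside 31.4% and 29.6% of all genes. In ossro1c 1 was higher, and in osdreb2b 2 were, beside 29.4% and 29.9% of all genes. Of the 16, 7 were lower in both mutants. HSP18.0 (LOC_Os01g08860) had 53.7, 48.2 and 53.1 CPM in WT, 2.29, 3.66 and 4.17 CPM in ossro1c, and 16.4, 19.3 and 20.7 CPM in osdreb2b. It met the ratio limit in neither mutant, with log2 changes of -4.25 (SE 0.19, adjusted p = 4e-10, edgeR) and -1.60 (SE 0.17, adjusted p = 1.7e-06, edgeR). HSP26.2 (LOC_Os06g11610) fell more modestly, from 26.15 CPM in WT to 14.1 CPM in ossro1c and 13.3 CPM in osdreb2b. HSP17.9B (LOC_Os01g04350), the highest of the list after HSP24.1 with 57.2 CPM in WT, had 49.3 CPM in ossro1c and 45.3 CPM in osdreb2b. Its log2 changes were -0.53 and -0.48 (adjusted p = 0.0003 and 0.00075, edgeR), and with raw library totals the first was -0.21 and did not pass. HSP18.8 (LOC_Os07g33350) rose in osdreb2b, by 3.03 (SE 0.35, adjusted p = 4.7e-06, edgeR), from 1.04 to 9.36 CPM.

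Without HSP81-1, 3 of 4 HSP90 and HSP100 genes were lower than WT in each mutant, beside 31.4% and 29.6% of all genes. In osdreb2b 1 was higher, beside 29.9% of all genes. HSP81-2 (LOC_Os09g30412), an HSP90 gene with a checked name, had 148, 150 and 153 CPM in WT, 122, 115 and 141 CPM in ossro1c, and 152, 136 and 135 CPM in osdreb2b. Its log2 changes from WT were -0.57 (SE 0.09, adjusted p = 0.0001, edgeR) and -0.23 (SE 0.09, adjusted p = 0.042, edgeR), and the second did not pass with raw library totals, where it was -0.09. CLPB1 (LOC_Os05g44340), a cytosolic HSP100, had 47.7, 48.6 and 49.95 CPM in WT, 6.18, 6.40 and 6.42 CPM in ossro1c, and 2.41, 2.89 and 2.35 CPM in osdreb2b. It missed the rule through ossro1c. CLPB3 (LOC_Os02g08490) fell from 40.7 CPM to 13.1 and 4.49 CPM. CLPB2 (LOC_Os03g31300) was not lower in either mutant, with 57.4 CPM in WT, 71.9 CPM in ossro1c and 82.6 CPM in osdreb2b.

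The reference table could check few names in the HSP70 and J-domain list. None of the 3 tested genes with a checked name was lower in a mutant. Another 7 tested loci, listed as HSP70 genes from general knowledge, could not be checked by name and are mostly given as counts. Of these, 2 are among the 43 loci, LOC_Os01g62290 and LOC_Os05g38530. Of the other 5, 3 were lower in each mutant, beside 31.4% and 29.6% of all genes. In each mutant 1 was higher, beside 29.4% and 29.9% of all genes. BIP1 (LOC_Os02g02410), an HSP70 chaperone of the endoplasmic reticulum, rose in ossro1c from 85.2 to 272 CPM, a log2 change of 1.36 (SE 0.08, adjusted p = 5.3e-09, edgeR), and had 88.1 CPM in osdreb2b. DJA6 (LOC_Os04g46390), a J-domain co-chaperone, had 281 CPM in WT, 483 CPM in ossro1c and 331 CPM in osdreb2b, and DJB6 (LOC_Os05g06440), another, had 6.22, 39.9 and 11.9 CPM.

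Of 22 heat shock factor genes, none of them among the 43 loci, 12 were lower in each mutant (54.5%), beside 31.4% and 29.6% of all genes. In ossro1c 6 were higher (27.3%, beside 29.4% of all genes), and in osdreb2b 5 were (22.7%, beside 29.9%). These were not all the same genes: 8 of the 22 were lower in both mutants and 2 were higher in both. Some factors moved in opposite directions. HSFC1B (LOC_Os01g53220) had log2 changes of -1.11 in ossro1c and 1.91 in osdreb2b, and HSFC2A (LOC_Os02g13800) of 1.44 and -1.38. HSFA3 (LOC_Os02g32590), whose Arabidopsis counterpart is a target of DREB2A, was the highest of them with 659, 631 and 608 CPM in WT. It had 267, 248 and 248 CPM in ossro1c and 120, 119 and 118 CPM in osdreb2b, log2 changes of -1.64 (SE 0.07, adjusted p = 1.5e-10, edgeR) and -2.55 (SE 0.07, adjusted p = 3.4e-12, edgeR). HSFA9 (LOC_Os03g12370) had 267 CPM in WT, 412 CPM in ossro1c and 222 CPM in osdreb2b. HSFA1 (LOC_Os03g63750) had 146, 146 and 141 CPM, and its small negative changes of -0.32 and -0.19 did not pass with raw library totals. HSFA4D (LOC_Os05g45410) had 60.3 CPM in WT, 47.4 CPM in ossro1c and 7.95 CPM in osdreb2b. None of the listed factors met the rule.

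**Figure D4:**
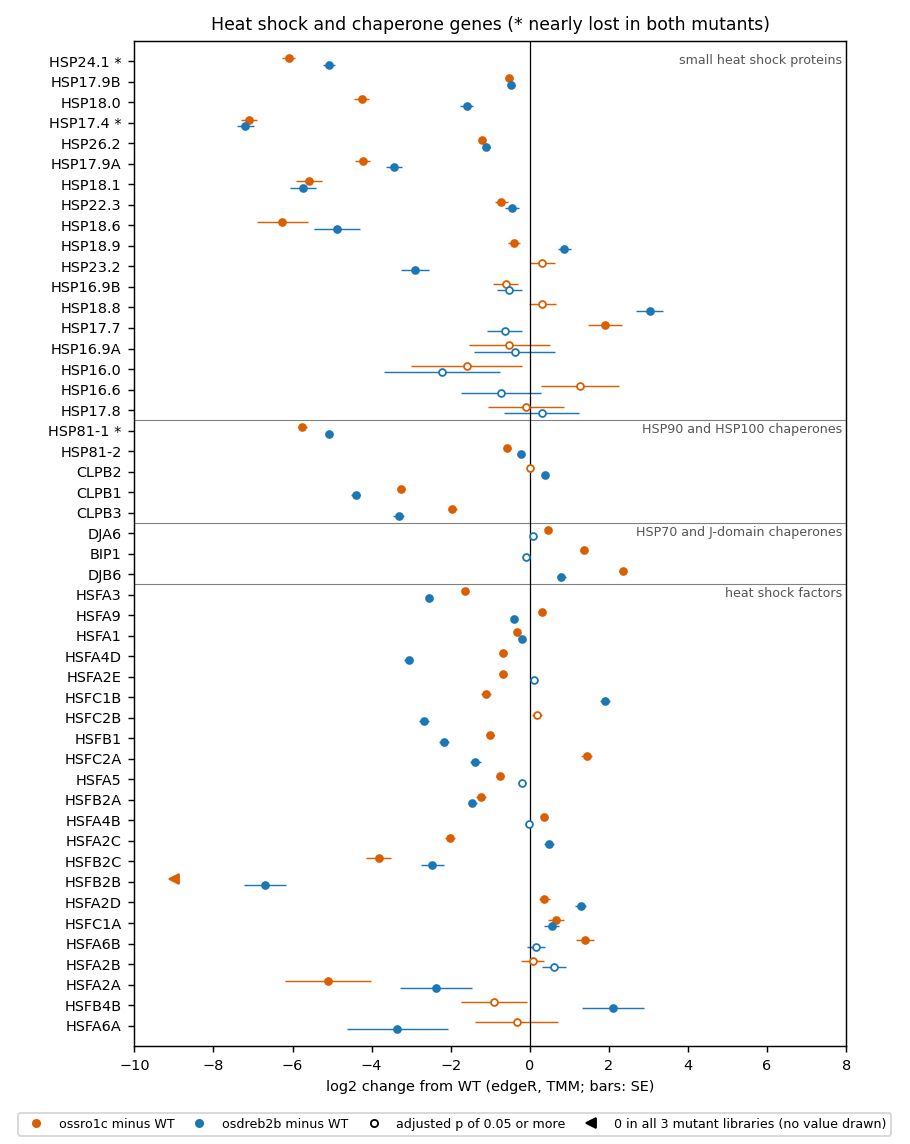
Log2 change from WT in ossro1c (orange) and osdreb2b (blue) of the 48 tested heat shock and chaperone genes, in 4 families and ordered by WT level, with bars for the SE. Open points did not pass an adjusted p of 0.05, the arrowhead is HSFB2B at 0 in ossro1c, asterisks mark the 3 chosen genes, and both series share the WT libraries.

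The 43 loci were spread over 11 of the 12 chromosomes. Chromosomes 1, 2 and 3 held 8 each, together 55.8% of them, where 43.3% of the 7469 loci over the minimum lay. A single pair lay within 100 locus numbers of each other, LOC_Os05g38480 and LOC_Os05g38530, with 4 loci between them. Of those 4, LOC_Os05g38490 rose in both mutants, from 1.78 CPM in WT to 9.90 CPM in ossro1c and 6.33 CPM in osdreb2b. LOC_Os05g38520 had 87.0, 62.8 and 77.7 CPM in the same order, and was lower in ossro1c by a log2 change of -0.78 (adjusted p = 0.0011, edgeR). LOC_Os05g38510 was at 0 in all libraries, and LOC_Os05g38500 rose in ossro1c, from 0.956 to 6.47 CPM. None of the 3 detected loci between the pair was at or under 1/16 of WT in a mutant.

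The loci directly before and after each of the 43 in the count table were also examined, a comparison chosen after the values were seen. Of 86 such loci 62 were tested. In ossro1c 32 of them were lower than in WT (51.6%, against 31.4% of all genes), and 13 were higher (21.0%, against 29.4%). In osdreb2b 36 were lower (58.1%, against 29.6%), and 10 were higher (16.1%, against 29.9%). Their median log2 change from WT was -0.66 in each mutant, against a median within 0.03 of 0 over all genes. The loss was mostly far from complete: 3 of them were at or under 1/16 of WT in both mutants.

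LOC_Os09g32360 and LOC_Os01g64120 were among several neighbours with wide changes, with log2 values of -4.21 and -8.47 for the first and -3.35 and -5.14 for the second in ossro1c and osdreb2b. Others fell by similar amounts, among them LOC_Os02g27800 with -6.05 and -5.23. A stretch on chromosome 4 is described because it holds LOC_Os04g12720 and LOC_Os04g12970. LOC_Os04g12960, next to LOC_Os04g12970, had a WT mean of 1665 ± 11.3 CPM (SD, n = 3), above that of its neighbour. It fell to 539 ± 19.2 CPM in ossro1c and 195 ± 9.73 CPM in osdreb2b, log2 changes of -1.95 and -3.23 (adjusted p = 5.2e-11 and 1.1e-12, edgeR). LOC_Os04g12980, on the other side, fell from 94.9 to 35.4 and 30.6 CPM, and LOC_Os04g12950 fell from 26.5 to 5.02 and 1.65 CPM. Further along, LOC_Os04g12669, just below the WT minimum, fell from 18.3 to 0.258 and 0.474 CPM. LOC_Os04g12744 was also lower in both mutants, by -1.48 and -0.61 (adjusted p = 6.6e-07 and 0.0016, edgeR). So were LOC_Os04g12710 and LOC_Os04g12830, which had 0.966 and 0.416 CPM in WT, and LOC_Os04g12920 was lower in osdreb2b. Some loci of the stretch did not fall: LOC_Os04g12820 was higher in osdreb2b by 0.99 (adjusted p = 0.0021, edgeR), and LOC_Os04g13000, at 0 in WT, had 0.864 CPM in ossro1c. LOC_Os04g12730 and LOC_Os04g12850 passed in neither comparison with WT. On chromosome 3, HSP17.4 lay beside HSP18.1 (LOC_Os03g16030), which fell from 6.75 to 0.174 and 0.136 CPM, and near HSP17.9A (LOC_Os03g15960), which fell from 11.04 to 0.738 and 1.12 CPM. HSP17.7 (LOC_Os03g16040), in the same stretch, rose in ossro1c from 0.602 to 2.81 CPM, and LOC_Os03g16050 rose from 160.3 to 479 CPM in ossro1c and 401 CPM in osdreb2b.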

How the data were processed

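The deposited values were raw counts per locus, 1 column for each of the 9 libraries, and 0 columns were left unused. Per the labels' protocols, total RNA came from TRIzol extraction and the library kit was a SMARTER mRNA-Seq kit. The submitters' processing notes name StringTie 2.1.4, HISAT2 2.2.1, fastp 0.23.4 and DESeq2, with no role or order. The genome build, annotation and strand setting were not given in the sources used here.

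CPM was computed from library totals. Genes were kept by filterByExpr with the group as its argument, scaled by TMM and tested in edgeR 4.0.16 (R 4.3.3) by robust quasi-likelihood, with 1 coefficient per group over all 9 libraries. P-values were adjusted by the Benjamini-Hochberg method over the 26112 genes tested, with a threshold of 0.05. SE is an approximate standard error of the log2 change. The test was checked on simulated counts in which few genes changed, equally up and down. That check does not cover changes as common as those in these data. DESeq2 1.42.0 served as an alternative.

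Replicate numbers gave no sign of pairing: deviations of libraries with the same number correlated between -0.009 and 0.022. Those with different numbers correlated between -0.036 and 0.025. Such correlations cannot show how the plants were grouped.

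The 43 loci and all gene lists were chosen with earlier results of these data known. The lists hold 89 pairs of locus and name from general knowledge of rice, corrected after the counts and the reference table were seen, and they support nothing on their own. A name was used when the RefSeq gene table (assembly ASM3414082v1) had it on the chromosome of the locus and within 1 Mb of the place interpolated from the identifiers, which 68 pairs met at a median distance of 0.074 Mb. That table lacks 19 names, including OsSRO1c, and the remaining 2 pairs lay farther apart. No sequence or promoter was used here.

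Named loci are those with a checked name, the 12 highest in WT, the 6 highest and 6 lowest changes between mutants among called loci, the 3 nearest to each limit of the rule on either side, loci in runs, up to 4 listed genes per family by WT level, and both study genes. Loci in the stretches on chromosomes 3, 4 and 5, the 2 other neighbours and the 2 leaf markers given by identifier, the other small heat shock protein genes named, CLPB3 and loci with scattered zeros were named after their values were seen. So were HSFC1B and HSFC2A.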

Additional observations from a re-analysis of the deposited data

How the results depend on the processing

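The number of loci that met the rule followed its limits: it was 26 with a WT minimum of 50 CPM, 89 with a ratio limit of 1/8 and 23 with 1/32. It was 56 with a minimum of 10 CPM, 53 with TMM-scaled CPM, 52 with DESeq2 size factors, 37 when the highest mutant library had to meet the limit against the lowest WT library, and 42 to 45 when each library was left out in turn. The 28 loci lower in osdreb2b than in ossro1c became 20 to 29 over all alternatives, and the 20 came from the fit of only the 6 mutant libraries. The 5 higher ones became 2 with raw library totals, 2 with only the 6 mutant libraries in the fit, and 3 to 5 when each library was left out in turn. They were 3 without ossro1c replicate 1 and 3 without osdreb2b replicate 1. Samples share only a replicate number, and with that number as a replicate block 27 loci were lower and 6 higher. Raw library totals moved the median log2 change of all genes by 0.32 in ossro1c, by 0.17 in osdreb2b and by -0.20 between the mutants, and with them 22 of 48 chaperone and heat shock factor genes were lower in ossro1c and 23 in osdreb2b, in place of 26 each. Loci next to the 43 were lower in 27 to 35 cases in ossro1c and in 32 to 39 cases in osdreb2b over all alternatives. No called result changed direction under an alternative. The cause of these changes was not tested. The planned count of promoter motifs was not run, since no promoter sequences were used here. Depth limits the test between the mutants at the 4 loci that did not pass the count filter on the 6 mutant libraries alone.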

Other observations

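Below the WT minimum, the same ratio limit was met by 34 of the 5619 loci with a WT mean from 5 to 20 CPM. Of these, 3 belong to the heat shock lists. HSFB2B (LOC_Os08g43334), a heat shock factor, had 8.58, 9.12 and 8.88 CPM in WT, was at 0 in all ossro1c libraries and had a mean of 0.0911 CPM in osdreb2b. HSP18.6 (LOC_Os02g54140) had 5.72 CPM in WT, 0.0869 CPM in ossro1c and 0.210 CPM in osdreb2b, and HSP18.1 is given above. Their values helped to choose them, so no test is given. LOC_Os02g27800, beside LOC_Os02g27790 of the 43 loci, was another, with 10.9 CPM in WT, 0.200 CPM in ossro1c and 0.316 CPM in osdreb2b. LOC_Os10g38910 met the limit with WT replicates that differed widely: they had 8.19, 0.0159 and 6.93 CPM, and both mutants were at 0.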
